A study of Mus musculus with 8 samples.

Results

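The 10 genes described here are early-response genes, which cells can transcribe soon after a stimulus. Dusp1, Dusp2, Dusp5 and Dusp6 encode dual-specificity phosphatases and Spry1 and Spry2 Sprouty inhibitors, both of them brakes of signalling, while Zfp36 encodes an RNA decay factor and Ier2, Ier3 and Ier5 are immediate early response genes. They were taken by gene symbol from the deposited expression table, each had 1 row there, and all 10 lay among the 15710 genes tested of 30802 with a symbol of their own. Hematopoietic stem cells sorted from bone marrow (lineage-negative, Sca-1+, c-Kit+, CD9 high, CD48-, CD150+) were measured on 4 arrays of elektra mice (Slfn2 elektra/elektra) and 4 arrays of wildtype littermates (Slfn2 wt/wt). Both groups had the C57Bl/6 background, and neither had been treated. Elektra is a point mutation of Slfn2 present in every cell of the animal, not only in stem cells, and the Slfn2 transcript level therefore does not check the genotype. By the sample notes, each sample held bones pooled from 2 mice, while the series text counts 4 mice per genotype. Ages are not among the labels used here. The series compares the genotypes to ask what the Slfn2 mutation does to stem cell transcripts at steady state.

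Mitogen-activated protein (MAP) kinases carry signals from cytokine and growth factor receptors and from stress to the nucleus. Dual-specificity phosphatases remove the activating phosphates from these kinases, and Sprouty proteins act earlier, between the receptors and ERK. Zfp36, also called tristetraprolin, binds AU-rich elements in messenger RNA and recruits the deadenylase that starts its decay. Several of the phosphatase and Sprouty genes are themselves switched on by the kinases they oppose, which makes them feedback regulators.

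Values are log2 signals of the arrays, so that a difference of 1 is a doubling, and every difference is elektra minus wildtype. With limma 0 of the 10 genes passed an adjusted p of 0.05, a threshold that 6 genes, or 0.0382% of those tested, passed. Dusp2, Dusp1 and Zfp36 lay below wildtype and Dusp6 above it at an unadjusted p under 0.05, by 1.42-fold, 1.34-fold, 1.26-fold and 1.39-fold. These 4 of 10 compare with 11.0% of all genes tested. By direction they were 3 of 10 lower, where 3.95% of all genes were, and 1 of 10 higher, where 7.02% were. Because the 10 genes were chosen with earlier results of these data known, these counts are a description and not a test. Ier2 lay on the side of Dusp1 but did not reach that p, and the means of Dusp5, Spry1, Spry2 and Ier5 differed by less than 0.06. The mean was lower in elektra for 6 of the 10 genes and for 46.9% of all genes tested. The median difference of the 10 genes was -0.05 and that of all genes tested 0.01.

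Promoters are shown for the 4 genes at an unadjusted p under 0.05, and for Dusp5, whose window holds a paired motif. RefSeq promoter sequences of assembly GRCm38.p6 were found for 9 of the 10 genes, without Ier2, and the 250 bases before the start of the gene were searched on both strands. The motifs were the CArG box, to which serum response factor binds, the cyclic AMP response element TGACGTCA, the AP-1 site TGACTCA, the ETS site CCGGAAG, the Egr site GCGGGGGCG and the TATA box TATAAA. The searched motifs do not overlap each other where they were found. Capitals mark every match in the sequences below, which run 5′ to 3′ on the strand of the gene.
Dusp1, chr17:26508473-26508722, minus strand: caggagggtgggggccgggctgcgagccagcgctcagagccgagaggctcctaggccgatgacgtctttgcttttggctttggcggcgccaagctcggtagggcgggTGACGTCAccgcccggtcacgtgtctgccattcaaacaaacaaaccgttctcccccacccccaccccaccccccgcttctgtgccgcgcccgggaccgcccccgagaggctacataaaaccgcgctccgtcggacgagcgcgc
Dusp2, chr2:127335909-127336158, plus strand: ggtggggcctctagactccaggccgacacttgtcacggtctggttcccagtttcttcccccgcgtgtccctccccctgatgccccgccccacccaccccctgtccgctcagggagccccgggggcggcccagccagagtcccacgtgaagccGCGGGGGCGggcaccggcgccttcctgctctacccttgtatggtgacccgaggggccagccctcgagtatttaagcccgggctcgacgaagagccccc
Zfp36, chr7:28379229-28379478, minus strand: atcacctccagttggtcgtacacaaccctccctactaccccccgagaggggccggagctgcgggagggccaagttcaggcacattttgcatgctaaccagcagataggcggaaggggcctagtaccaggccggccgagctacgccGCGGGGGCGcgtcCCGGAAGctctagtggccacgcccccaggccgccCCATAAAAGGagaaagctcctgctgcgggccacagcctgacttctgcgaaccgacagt
Dusp6, chr10:99262981-99263230, plus strand: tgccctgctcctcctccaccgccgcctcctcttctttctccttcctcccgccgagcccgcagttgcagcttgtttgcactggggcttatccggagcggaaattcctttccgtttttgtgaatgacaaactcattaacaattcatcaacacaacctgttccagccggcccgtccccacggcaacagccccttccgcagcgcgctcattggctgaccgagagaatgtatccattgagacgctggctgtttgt
Dusp5, chr19:53528895-53529144, plus strand: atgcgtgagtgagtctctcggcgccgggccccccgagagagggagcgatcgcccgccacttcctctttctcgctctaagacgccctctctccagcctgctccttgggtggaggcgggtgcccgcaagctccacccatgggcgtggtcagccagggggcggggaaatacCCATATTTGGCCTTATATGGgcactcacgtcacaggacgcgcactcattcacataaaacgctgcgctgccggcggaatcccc

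The CArG box was found in the windows of Dusp5, which has 2 copies side by side, and of Zfp36, where it lies 58 to 49 bases before the start. It was present in 1.47% of 32851 RefSeq promoter windows of this length. Dusp1 holds TGACGTCA 143 to 136 bases before its start, a motif of 1.55% of windows. Dusp2 and Zfp36 hold GCGGGGGCG, which 2.57% of windows have, and Zfp36 also holds CCGGAAG, which 6.91% have. No searched motif was found in the windows of Dusp6, Spry1, Spry2, Ier3 and Ier5. TGACTCA, present in 4.46% of windows, and TATAAA, present in 12.4%, were in none of the 9. A match describes the letters only, and Dusp5, with its 2 CArG boxes, had almost equal means in the genotypes.

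The arrays differed in ways that bear on these genes. All 12 stem cell markers examined, Procr and Slamf1 among them, lay above the level filter, the median of all feature means at 6.17. Cd48, which the sort selects against, lay below it, as did 7 of 8 B cell markers, 6 of 7 T and NK cell markers and 5 of 5 mast cell markers that were measured. Elektra replicate 4 had the highest mean level of 9 granulocyte markers, 7.49 in a range of 6.05 to 7.49 over elektra and 6.22 to 6.66 over wildtype arrays. That mean was high through S100a8, S100a9, Ngp, Camp and Ltf, whereas Elane, Mpo and Ctsg were highest on wildtype replicate 1 and Prtn3 was lowest on elektra replicate 4. Elektra replicate 4 also had the highest mean of 5 erythroid markers, 7.41 in a range of 5.96 to 7.41 over elektra and 6.17 to 6.24 over wildtype arrays, and was the highest array for all of these but Epor. Both arrays of replicate 3 stood apart in Xist, the RNA of the inactive X chromosome, at 5.06 in elektra and 5.37 in wildtype, against 10.26 to 10.79 on the other 6 arrays. The interquartile range of the signals ran from 2.49 to 2.67 over elektra and from 2.41 to 2.64 over wildtype arrays. In such bulk samples fewer cells of a type and less RNA per cell cannot be told apart.

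Dusp1 encodes a nuclear phosphatase of p38, JNK and ERK and is a classical immediate early gene. It read 12.24, 12.17, 12.75 and 12.08 on elektra arrays 1 to 4, against 12.80, 12.67, 12.88 and 12.59 on wildtype arrays 1 to 4. Of the elektra arrays 3 lay below every wildtype array, and elektra replicate 3 overlapped them. The means were 12.31 ± 0.30 in elektra and 12.73 ± 0.13 in wildtype (SD, n = 4 each), a difference of -0.42 with a standard error of 0.15 (limma adjusted p = 0.359, unadjusted 0.0149).

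Dusp2, a nuclear phosphatase found mainly in blood and immune cells, differed most among the 10 genes. Its signals were 9.56, 9.24, 9.73 and 9.43 on the elektra arrays, against 9.96, 10.02, 10.28 and 9.72 on the wildtype arrays. The genotypes barely overlapped, since elektra replicate 3, at 9.730, lay just above wildtype replicate 4, at 9.720. The mean was 9.492 ± 0.21 in elektra and 9.996 ± 0.23 in wildtype (SD, n = 4 each), a difference of -0.50 with a standard error of 0.14 (limma adjusted p = 0.301, unadjusted 0.00446). The 95% interval, -0.81 to -0.19, corresponds to a level in elektra between 0.569 and 0.874 of that in wildtype.

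Dusp6 encodes a cytoplasmic phosphatase specific for ERK, and its transcription is known to follow ERK activity. It stood on the opposite side from Dusp1 and Dusp2, with 10.24, 9.97, 10.28 and 10.79 on the elektra arrays, against 10.18, 9.66, 9.88 and 9.68 on the wildtype arrays. Of the elektra arrays 3 lay above every wildtype array, and elektra replicate 2 lay below wildtype replicate 1. The means were 10.32 ± 0.34 in elektra and 9.85 ± 0.24 in wildtype (SD, n = 4 each), a difference of 0.47 with a standard error of 0.18 (limma adjusted p = 0.380, unadjusted 0.0221). The difference was 0.31 without elektra replicate 4, the array with the highest means of the granulocyte and erythroid marker lists, and the unadjusted p was then 0.0614. The part of those markers in the result was not tested otherwise.

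Dusp5, the nuclear phosphatase specific for ERK, had elektra signals of 8.27, 8.28, 8.53 and 8.07 and wildtype signals of 8.43, 8.04, 8.68 and 8.20. The genotypes overlapped fully, with a difference of -0.05 and a 95% interval of -0.38 to 0.28 (limma adjusted p = 0.927). This interval leaves room for a level in elektra between 0.769 and 1.21 of that in wildtype.

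**Figure D1:**
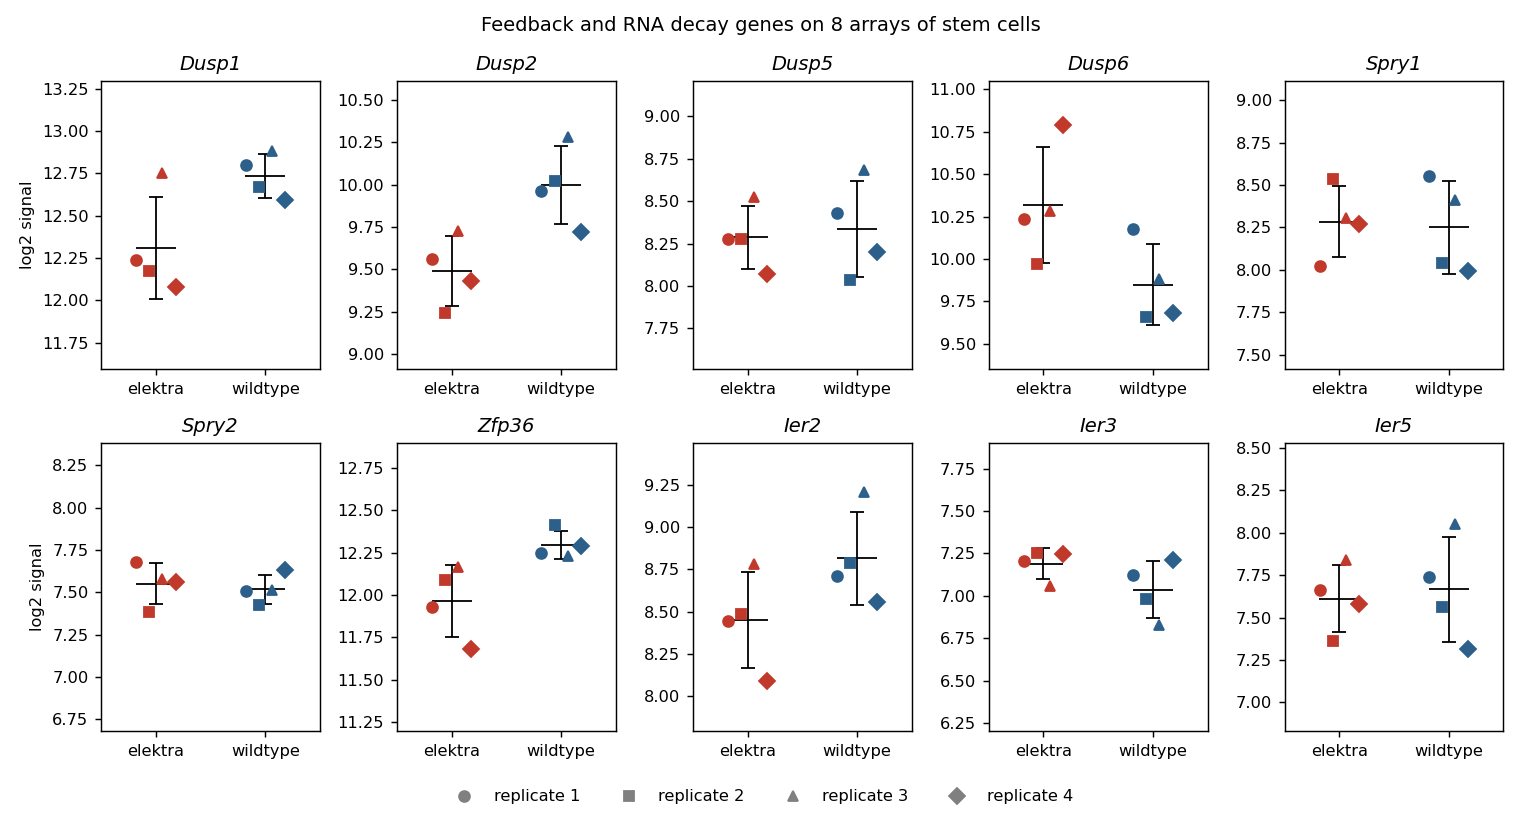
Log2 signal of the 10 genes on each array, elektra left and wildtype right in every panel, with the replicate number as the symbol and a bar for the mean ± SD of 4 arrays. Every panel spans the same range of log2 units, and the elektra arrays of Zfp36 all lie below the wildtype arrays while those of the other 9 genes overlap them.

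Zfp36 was the gene of the 10 whose genotypes did not overlap, a separation in this direction that 2.37% of all genes tested showed. In the higher direction 0 of the 10 genes and 3.9% of all genes were separate. Its elektra arrays read 11.93, 12.09, 12.16 and 11.68, against 12.25, 12.41, 12.23 and 12.29 on the wildtype arrays. The gap between the highest elektra and the lowest wildtype array was narrow, and elektra replicate 4 was the lowest array. Its mean was 11.97 ± 0.21 in elektra and 12.30 ± 0.08 in wildtype (SD, n = 4 each), a difference of -0.33 with a standard error of 0.12 (limma adjusted p = 0.363, unadjusted 0.0166). Without elektra replicate 4 the difference was -0.23 and the unadjusted p 0.0482.

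The Sprouty genes, whose proteins hold back receptor signals on their way to ERK, lay near equal means. Spry1 read 8.02, 8.54, 8.30 and 8.27 in elektra, against 8.55, 8.04, 8.41 and 7.996 in wildtype. Its difference of 0.03 had a 95% interval of -0.30 to 0.37 (limma adjusted p = 0.956). Spry2 read 7.68, 7.39, 7.58 and 7.56 in elektra, against 7.51, 7.42, 7.51 and 7.63 in wildtype, with a difference of 0.03 and the narrowest interval of the 10 genes, -0.18 to 0.24 (limma adjusted p = 0.924). These intervals leave room for changes of either sign, and the signs of both differences turned under other settings.

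The Ier genes did not go one way. Ier2, whose product is a small nuclear protein with transcriptional activity, read 8.45, 8.49, 8.78 and 8.09 in elektra, against 8.71, 8.79, 9.20 and 8.56 in wildtype. Here 3 elektra arrays lay below every wildtype array, and the difference was -0.36 with a standard error of 0.17 (limma adjusted p = 0.460, unadjusted 0.0546). It was -0.24 without elektra replicate 4 and -0.23 without wildtype replicate 3, the lowest array of one genotype and the highest of the other. Ier3, a regulator of cell survival, read 7.20, 7.25, 7.06 and 7.25 in elektra, against 7.12, 6.98, 6.83 and 7.21 in wildtype, a difference of 0.15 with a 95% interval of -0.08 to 0.39 (limma adjusted p = 0.604). Ier5, which is known to promote the heat shock factor Hsf1, read 7.66, 7.36, 7.84 and 7.58 in elektra, against 7.74, 7.56, 8.05 and 7.31 in wildtype. Its genotypes overlapped, with a difference of -0.06 and a 95% interval of -0.41 to 0.30 (limma adjusted p = 0.924).

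Within a genotype the arrays were ordered alike for several of these genes. Replicate 3 was the highest elektra array and also the highest wildtype array for 5 genes, Dusp1, Dusp2, Dusp5, Ier2 and Ier5. Replicate 4 was the lowest elektra array for 4 genes, Dusp1, Dusp5, Ier2 and Zfp36. Ier3 went the other way, with replicate 3 its lowest array in both genotypes. The mean deviation of the 10 genes from their own 8-array means was -0.07, -0.12, 0.10 and -0.12 on the elektra arrays and 0.13, -0.04, 0.20 and -0.08 on the wildtype arrays, so that the genotypes overlapped. With both arrays of replicate 3 left out, which are also those of low Xist, the difference was -0.52 for Dusp1, -0.49 for Dusp2, -0.42 for Zfp36, -0.34 for Ier2 and 0.50 for Dusp6. The limma unadjusted p-values were then 0.00126 for Dusp1, 0.00552 for Dusp2, 0.0122 for Zfp36, 0.0357 for Ier2 and 0.0562 for Dusp6. This setting was chosen after seeing the data, and the share of all genes under 0.05 in it is not given here.

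**Figure D2:**
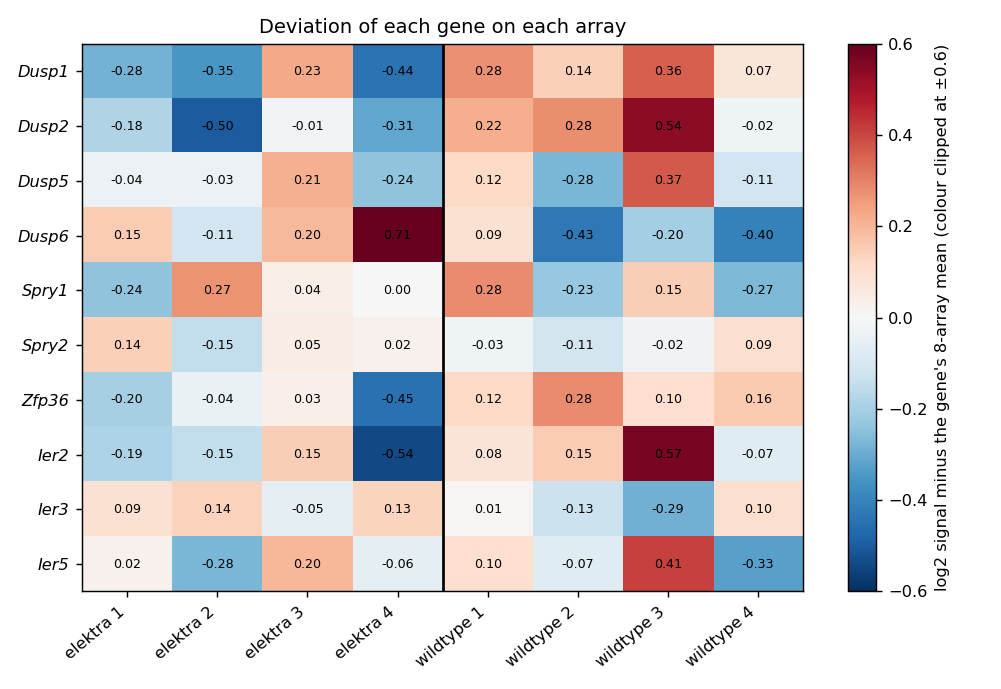
Deviation of each gene on each array from the gene's mean over all 8 arrays, in log2 units, with the 4 elektra arrays left of the line and the 4 wildtype arrays right of it. Replicate 3 is the highest array of both genotypes for Dusp1, Dusp2, Dusp5, Ier2 and Ier5, and elektra replicate 4 is the highest array for Dusp6.

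Among heat shock genes, another group that reacts within minutes, Hspa1a and Hspa1b varied widely between the arrays. Hspa1a, which encodes the inducible chaperone Hsp70, read 8.70, 5.86, 10.87 and 6.75 in elektra, against 10.39, 10.80, 10.87 and 8.22 in wildtype. Hspa1b, its near-identical neighbour, from which the probes may not separate it, read 8.26, 6.66, 9.70 and 6.47 in elektra, against 9.35, 9.71, 9.69 and 7.57 in wildtype. Elektra replicate 3 and wildtype replicates 1, 2 and 3 were the high arrays of both genes. Hspa1a differed by -2.02 (limma adjusted p = 0.473) and Hspa1b by -1.31 (limma adjusted p = 0.512). Hspd1, at 0.40, and Hspe1, at 0.25, lay on the other side. The mean level of 14 heat shock genes ranged from 8.30 to 9.05 over elektra and from 8.50 to 9.02 over wildtype arrays. Of 13 tested, 1 lay above wildtype and 0 below it at an unadjusted p under 0.05, where 7.02% and 3.95% of all genes did. Their median difference was 0.02. The part of heat shock gene levels in the early-response differences was not tested.

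Klf4, a transcription factor gene, was the gene most like the 10 in its pattern over the 8 arrays. Likeness was the Pearson correlation with the mean deviation of the 10 genes, a description over 8 arrays that share the genotype difference. Klf4 had 0.986, followed by Gosr1 and Sat1 at 0.951, Fos at 0.950, Fosb and Dpm3 at 0.934, Zc3h12a at 0.933, Emd at 0.932, and Dctn3 and Ddit3 at 0.930. Klf4 read 7.54, 7.50, 8.95 and 7.24 in elektra, against 8.79, 7.92, 9.46 and 7.76 in wildtype, and so spanned more than the 10 genes did. Among the 10 themselves, Dusp1, Dusp2, Dusp5, Ier2 and Ier5 had correlations of 0.799 to 0.865 with the mean to which each contributes. Dusp6 had -0.13, Spry2 -0.02 and Ier3 -0.80.

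The wider phosphatase family had members on both sides as well. Of 10 MAP kinase phosphatase genes tested, 4 lay lower and 2 higher at an unadjusted p under 0.05, and 0 passed the adjusted threshold. These counts include Dusp1, Dusp2 and Dusp6, and 3.95% of all genes tested were lower and 7.02% higher at that p. Besides Dusp1 and Dusp2, the lower genes were Dusp10 and Dusp16, both phosphatases of the stress kinases JNK and p38. Dusp16 read 7.14, 7.41, 6.96 and 7.85 in elektra, against 7.79, 7.77, 8.01 and 7.66 in wildtype (difference -0.46, limma adjusted p = 0.382). Dusp10 read 6.95, 6.42, 7.01 and 6.61 in elektra, against 7.27, 6.76, 7.24 and 7.22 in wildtype (difference -0.37, limma adjusted p = 0.434). Elektra replicate 4 was the highest elektra array of Dusp16 and overlapped wildtype, and for Dusp10 the overlap came from wildtype replicate 2. With single arrays left out, Dusp16 kept an unadjusted p under 0.05 in 5 of 8 fits and Dusp10 in 3 of 8.

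Dusp4, a nuclear phosphatase induced by ERK, stood with Dusp6. It read 8.96, 8.83, 8.74 and 8.83 in elektra, against 8.83, 8.60, 8.48 and 8.30 in wildtype (difference 0.29, limma adjusted p = 0.416). With single arrays left out, Dusp4 kept an unadjusted p under 0.05 in 3 of 8 fits. Dusp7, Dusp8 and Dusp9 differed by 0.06, -0.0042 and -0.09. Their signs turned under other settings.

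Zfp36l1, a paralog of Zfp36 that also directs decay of AU-rich transcripts, lay on the same side as Zfp36. It read 8.68, 8.47, 8.43 and 8.30 in elektra, against 8.97, 8.64, 8.93 and 8.81 in wildtype (difference -0.37, limma adjusted p = 0.328). Zfp36l2, the other paralog above the level filter, had a difference of 0.03 and a wildtype SD of 0.47. Its wildtype replicate 2, at 7.82, lay far below the others, and without that array the difference was -0.20. Zfp36l3 and Spry3 lay below the level filter. In the Sprouty and Spred family 0 of 6 genes tested reached an unadjusted p under 0.05, and in the Ier family 0 of 4. As 11.0% of all genes tested reached that p, counts of 0 in lists this short do not set these families apart. Spred2 differed by 0.15, Spry4 by -0.15, Spred1 by 0.11, Ier5l by -0.07 and Spred3 by 0.01.

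**Figure D3:**
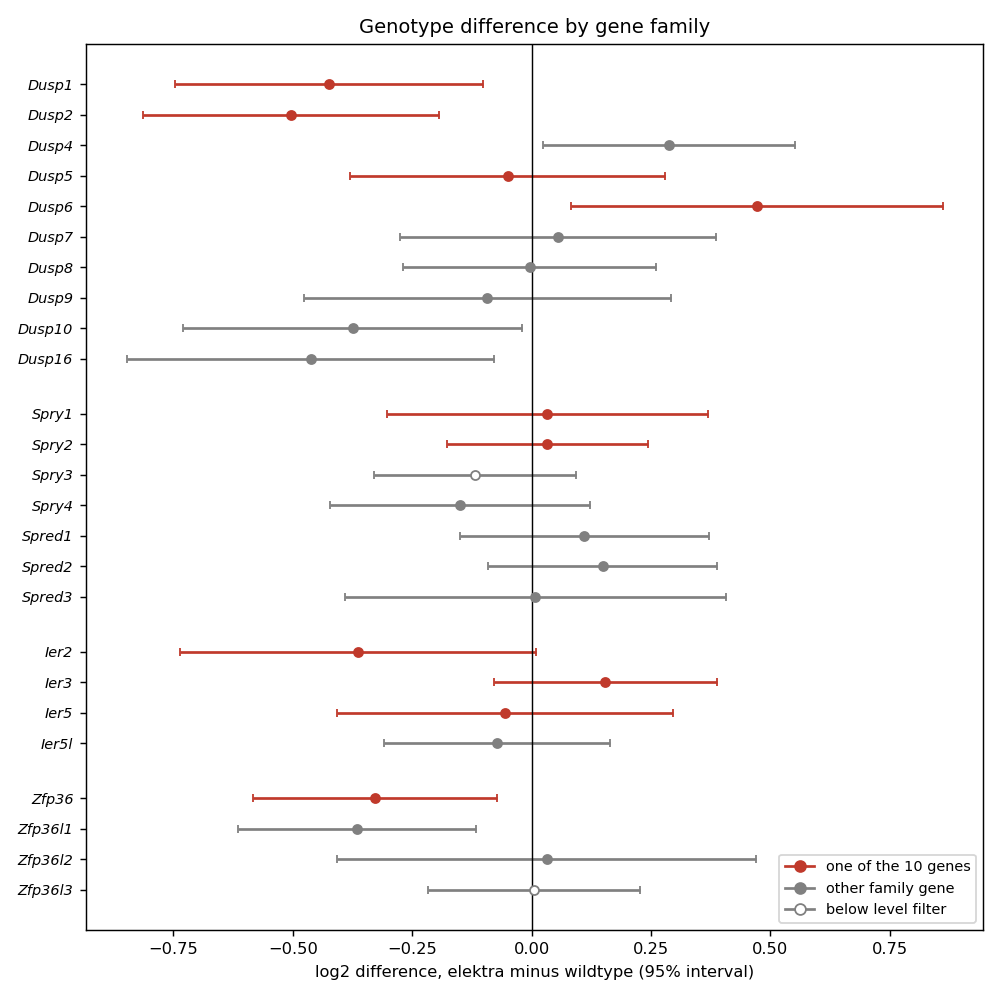
Log2 difference, elektra minus wildtype, with its 95% interval from limma, for every measured gene of the phosphatase, Sprouty and Spred, Ier and Zfp36 families. Red marks the 10 genes, grey the other family genes and open circles genes below the level filter. Dusp1, Dusp2, Dusp10, Dusp16, Zfp36 and Zfp36l1 lie to the left of 0 with intervals that exclude it, Dusp4 and Dusp6 to the right.

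The kinases on which the phosphatases act, and genes upstream of them, were tested as well. Of 25 genes from receptor adaptors to ERK, 2 lay lower and 1 higher at an unadjusted p under 0.05, with a median difference of 0.05. The shares of all genes tested were 3.95% lower and 7.02% higher. Mapk3, which encodes ERK1, read 9.54, 9.66, 9.87 and 9.71 in elektra, against 10.01, 10.12, 10.01 and 10.31 in wildtype (difference -0.42, limma adjusted p = 0.262). The genotypes of Mapk3 did not overlap.

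The adaptor gene Gab1 differed by -0.53 and the scaffold gene Ksr1 by 0.22. Of 17 genes of the p38 and JNK cascade, 0 reached an unadjusted p under 0.05, where 11.0% of all genes tested did. Mapk8 differed by 0.36, Map2k4 by 0.35, Mapkapk5 by 0.18 and Mapkapk2 by 0.18. With 1 array left out, Mapk8 was as low as 0.23 (without elektra replicate 2), Map2k4 0.20 (without wildtype replicate 2) and Mapkapk2 0.105 (without wildtype replicate 3). Mapkapk2 encodes the kinase that phosphorylates the Zfp36 protein. Of 9 other output genes of ERK, among them Ccnd1 at 0.19, Phlda1 at -0.19, Etv4 at -0.12 and Etv5 at 0.08, 0 reached it.

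Early-response transcription factor genes lay lower as a list, with a median difference of -0.34. Of 20 tested, 8 lay lower and 0 higher at an unadjusted p under 0.05, among them Nr4a1 at -0.71, Egr1 at -0.57, Junb at -0.48 and Fosl2 at -0.44. At that p 3.95% of all genes tested were lower and 7.02% higher. The list was chosen with earlier results of these data known. The mean level of the list ranged from 8.60 to 9.08 over elektra and from 8.89 to 9.41 over wildtype arrays, and the genotypes overlapped through elektra replicate 3. Of 15 other early-response genes, 2 were lower and 1 higher. Ppp1r15a, a phosphatase subunit of the stress response, was at -0.47, the matricellular gene Cyr61 at -0.41, the lymphocyte activation marker gene Cd69 at 0.50 and the cyclooxygenase gene Ptgs2 at 0.43. Ptgs2 was at 0.24 without elektra replicate 4, its highest array. In both lists 0 genes passed the adjusted threshold.

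The decay machinery had a median slightly above 0. Of 30 genes of deadenylation and messenger RNA decay, 3 had an unadjusted p under 0.05 and a higher mean and 0 a lower one, where 7.02% of all genes were on the higher side at that p. Their median difference was 0.06. The exosome subunit gene Exosc3 read 8.65, 8.76, 8.58 and 8.47 in elektra, against 8.20, 7.98, 8.18 and 8.15 in wildtype (difference 0.49, limma adjusted p = 0.155). The nuclease gene Xrn2 differed by 0.21, the deadenylase subunit gene Cnot11 by 0.28 and Exosc9 by 0.22.

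Other proteins that bind AU-rich elements or stem-loops gave 2 higher and 0 lower of 12 at an unadjusted p under 0.05, with a median of 0.11. At that p 7.02% of all genes tested were higher and 3.95% lower. Hnrnpd, which encodes AUF1, read 9.93, 9.87, 9.80 and 9.59 in elektra, against 9.55, 9.22, 9.38 and 9.43 in wildtype (difference 0.40, limma adjusted p = 0.276). Hnrnpab differed by 0.28, Tia1 by 0.24 and Elavl1, which encodes the stabilizing protein HuR, by 0.18. In the kinase, output, decay and binding protein lists 0 genes passed the adjusted threshold.

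**Figure D4:**
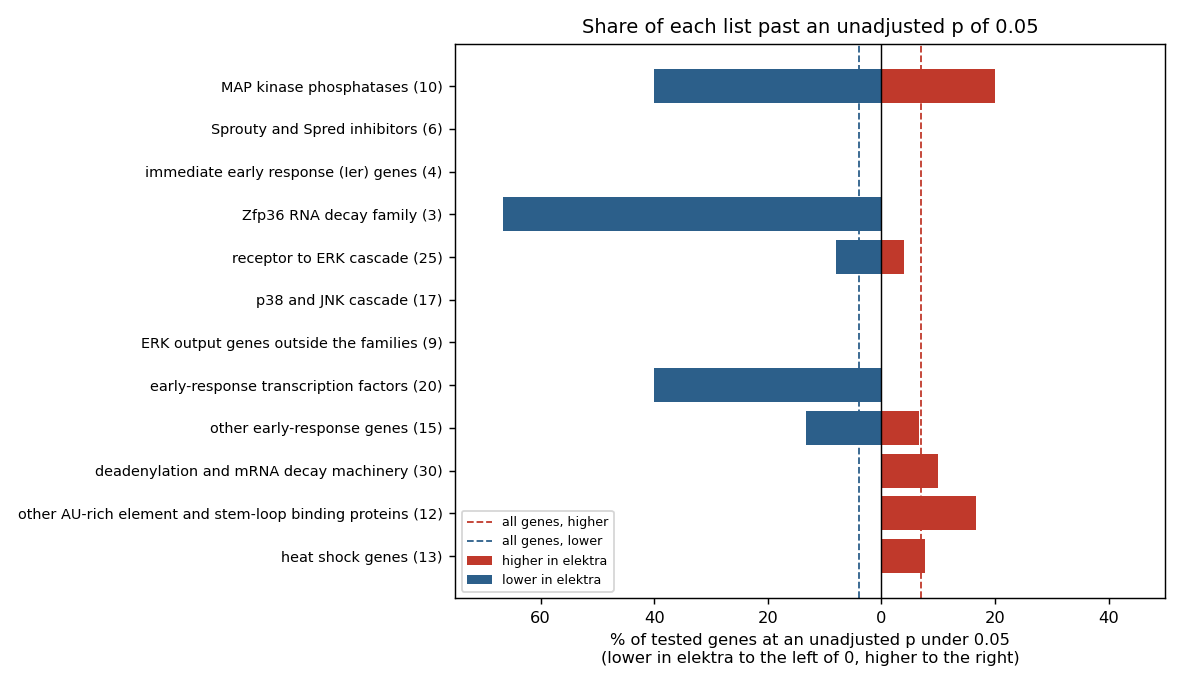
Share of the tested genes of each list, with their number in parentheses, that reached an unadjusted p under 0.05, lower in elektra to the left of 0 and higher to the right. Dashed lines mark the shares of all 15710 genes tested, 3.95% lower and 7.02% higher. The bars of the Zfp36 family rest on 3 genes.

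When the spread of each array's signals, its interquartile range, was added to the model (an alternative chosen after seeing the data), 1 of the 10 genes kept an unadjusted p under 0.05, where 7.92% of all genes reached it. That gene was Dusp2, at -0.45 and an unadjusted p of 0.0244. Dusp1 was then at -0.34, Zfp36 at -0.23 and Dusp6 at 0.32. The sign of no difference among these 4 genes turned in any of the 20 settings run. The authors' deposited table lists unadjusted p-values of 0.0172 for Dusp2, 0.0277 for Zfp36, 0.0414 for Dusp1 and 0.0650 for Dusp6.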

How the data were processed

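The deposited log2 signals were made by the authors with RMA in Affymetrix Expression Console 1.4, per the submitters' processing notes; RMA corrects background, normalizes by quantiles and combines probes by median polish. The workbook that the authors deposited also holds genotype means, their log2 ratio, an unadjusted t-test p-value and a signed score, the linear fold change with reciprocals written negative. For the array design and genome build, no source used here names one. Per the labels, about 200 pg of RNA and 12 cycles of PCR were used for each array.

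Of 33793 rows, 32074 had 1 symbol. The row of highest mean was kept per symbol, and genes at or above the median of all row means, 6.17 log2, were tested two-sided and without covariates in R 4.3.3 (limma 3.58.1, lmFit and eBayes), and adjusted by Benjamini-Hochberg over 15710 genes. Precision is limited by the number of arrays, since signals have no read depth; the standard error of a difference had a median of 0.12 log2. Where nothing states how the replicates were raised, p-values measure only the spread between these samples. Lists are described by counts and medians. Named were the 10 genes, the measured genes of their families, up to 4 genes of smallest p in each other list, and the 10 genes most alike in pattern (unnamed genes passed over). Some of them are not reported here. The members and lists were chosen with earlier results of these data known. On simulated arrays 35.8% of genes changed 1.5-fold, 80.6% of those changed 2-fold and 97.0% of those changed 3-fold were called, with 7 false calls among 15710 genes. Alternatives were 2 filters, quantile normalization, median centring, trend and robust eBayes, array weights, means of rows, replicate block, the deposited series table, each array left out, and 3 settings added after seeing the data.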

Additional observations from a re-analysis of the deposited data

Results flagged for a closer look

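In 9 of 134 groups of 4 arrays, taken over the 67 named genes, 1 array lay far from the other 3 by Dixon's criterion, which chance gives in about 1 of 20 groups. None of the 10 feedback and decay genes was among them. In wildtype, Dusp10 had an array at 6.76, Ier5l one at 6.84, Mapkapk2 one at 8.89, Phlda1 one at 6.22 and Hspa1b one at 7.57. In elektra, Ksr1 had an array at 7.74, Etv4 one at 6.42, Xrn2 one at 9.19 and Dpm3 one at 8.53.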

How the results depend on the processing

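Of the 65 named genes tested, 0 passed the adjusted threshold in any of the 20 settings, and 54 kept the sign of their difference in every setting that tested them. The number of the 10 genes at an unadjusted p under 0.05 was 4 and became 1 with the interquartile range as a covariate. It ranged from 3 to 5 with single arrays left out, fits for which the share of all genes is not given here. With the replicate block it was 5, where 11.8% of all genes reached that p. Their median difference was -0.19 with the stricter filter, which tested 8 of them, and ranged from -0.13 to 0.05 with single arrays left out, the highest without wildtype replicate 3. The count of all genes past the adjusted threshold was 3 without filter, 13 with the stricter filter, 3 with arrays centred on their medians, 18 with trend and robust eBayes, 0 with the replicate block, 2 with the arrays of low Xist left out, 0 with the interquartile range as a covariate, and 0 to 4 with single arrays left out (0 without elektra replicate 4). Deviations of same-numbered arrays correlated at 0.14, 0.02, 0.13 and -0.00 over genes, and those of other pairs at -0.22 to 0.14. Such correlations cannot settle whether the numbers pair the arrays, and both arrays of low Xist carry the number 3. The replicate block added Ier2 (limma unadjusted p 0.00532).

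Signs turned for 11 of the 65 named genes, among them Map2k4, which differed by 0.35 with all arrays. With quantile normalization Spry1 was at -0.024, Spry2 at -0.0010, Dusp8 at 0.034, Spred3 at -0.034 and Zfp36l2 at -0.020. Dusp8 was at 0.044 with arrays centred on their medians and Spred3 at -0.018 with array weights and -0.054 with the arrays of low Xist left out. With the interquartile range as a covariate Spry1 was at -0.062, Dusp7 at -0.0075, Dusp8 at 0.12, Dusp9 at 0.18, Ier5l at 0.023, Zfp36l2 at -0.21 and Map2k4 at -0.022. With single arrays left out, Dusp5 ranged from -0.15 to 0.065, Spry1 from -0.052 to 0.13, Spry2 from -0.0094 to 0.088, Ier5 from -0.17 to 0.073, Dusp7 from -0.074 to 0.13, Dusp8 from -0.087 to 0.092, Dusp9 from -0.23 to 0.026, Spred3 from -0.13 to 0.14 and Zfp36l2 from -0.20 to 0.15. Dusp6 ranged from 0.31 to 0.59 and kept an unadjusted p under 0.05 in 5 of 8 such settings, without it when elektra replicate 4, wildtype replicate 2 or wildtype replicate 4 was left out. Dusp1, Dusp2 and Zfp36 kept it in 8 of 8. The cause of these changes was not tested.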
